A study of Mus musculus with 2 samples.

Results

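This account concerns the cancer cells of mouse liver metastases that fell into initial clusters held in similar proportion by both libraries of the study, here called the balanced clusters. Members were chosen by UMIs and by library shares of the same cells. They were the initial clusters with at least 50 annotated cancer cells and a median of at least 2000 UMIs (unique molecular identifiers, a count of captured RNA molecules) per cell. In addition, the cluster's share of the shZdhhc17 cancer cells, divided by its share of the shSCR cancer cells, had to lie above 0.5 and below 2. The rule kept 16 of 37 initial clusters with cancer cells, and 5553 of 14135 cancer cells (39.3%). These were 12.5% of the 44371 cells of the series, with 3171 from shZdhhc17 and 2382 from shSCR metastases.

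Of the 2 groups, one received ZDHHC17-silenced (shZdhhc17) 4T1 cells and the other received control (shSCR) 4T1 cells. Both kinds of cell carried a lentiviral pLKO.1 hairpin vector and were selected with puromycin, and silencing was checked by RT-qPCR, per the labels. The shSCR hairpin is a scrambled, non-targeting sequence. In both groups 250000 cells were injected into the spleen of female BALB/c mice aged 6 to 8 weeks, the spleen was then removed, and liver metastases were dissected on day 14. Equal numbers of cells from 3 dissociations per group were pooled and loaded on 1 BD Rhapsody cartridge, a microwell capture system for single-cell RNA sequencing. Each group is thus 1 library, mice cannot be told apart, and no test between the groups was possible. Intervals cover counting error only, and quartiles describe cells of a library, not replicates.

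4T1 is a mouse mammary carcinoma line that serves as a model of triple-negative breast cancer and spreads to the liver when cells reach the portal blood. Zdhhc17 encodes a palmitoyltransferase, an enzyme of the Golgi that attaches the fatty acid palmitate to cysteines of proteins and so alters their membrane binding and traffic. Epithelial tumour cells are commonly told from stroma and immune cells by Krt8 and Krt18, which encode the paired keratin filaments of simple epithelia, and by Epcam, which encodes an epithelial adhesion molecule. The number of UMIs and of genes detected in a cell reflects its RNA content as well as capture and sequencing depth. The mitochondrial percent, the share of a cell's UMIs from mitochondrially encoded genes, is used as a sign of cell condition and differs between cell types.

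The label of these cells could not be checked by marker levels, since levels of single genes were not analysed here. Krt8 (ENSMUSG00000049382.10, GRCm38 chromosome 15, 101996698 to 102004482, minus strand), Krt18 (ENSMUSG00000023043.7, chromosome 15, 102028180 to 102032027, plus strand) and Epcam (ENSMUSG00000045394.9, chromosome 17, 87635979 to 87651129, plus strand) are protein-coding genes and were all listed in the gene table. None of these 3 genes was among the 1000 most variable of 28523 genes, which the authors used for the UMAP, a map in 2 dimensions that places similar cells near each other. None of the 46 keratin genes listed there was among them either. None of the 94 genes flagged by the authors for the cell cycle was variable, Mki67, Top2a and Pcna included, which are used as markers of dividing cells. The files do not say whether keratin or cell cycle genes were set aside before the variable genes were picked. The neutrophil markers S100a8, S100a9 and Csf3r, the endothelial markers Pecam1, Kdr and Cdh5, and the fibroblast markers Col1a1, Col3a1 and Dcn were all flagged as variable. The same held for the erythroid markers Hbb-bs, Hba-a1 and Alas2. For T cells Cd3e and Trac were flagged but not Cd3d, and for hepatocytes Alb and Apoa1 but not Ttr. For macrophages C1qa was flagged but not Adgre1 and Cd68. Zdhhc17 (ENSMUSG00000035798.14, chromosome 10, 110941780 to 111010140, minus strand) was listed but not variable, and whether it was lower in the shZdhhc17 cells of these clusters was not analysed here.

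All 5553 cells of the 16 initial clusters were annotated as cancer cells. This is no check of the label, since the rule selected on it and the authors' names follow whole clusters here. Of the 30 nearest neighbours of each cell on the UMAP, 100% were cancer cells in shZdhhc17 and 100% in shSCR, with all annotated types and doublets allowed as neighbours. The libraries had 609 cell barcodes in common. Of the balanced cells, 144 (2.59%, against 2.75% of all cells) carried such a barcode, 82 in shZdhhc17 and 62 in shSCR. Only 7 barcodes marked a balanced cell in both libraries.

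In the range of median x on the UMAP, the balanced clusters overlapped the other cancer clusters. Near neighbours were mostly of the same kind. Of the 30 nearest cancer cells around balanced cells, 95.9% were in balanced clusters and 88.8% in the cell's own cluster. This local measure does not show that the kinds of cluster lay apart on the map. Median x coordinates of the balanced clusters ran from 1.20 to 1.37. The medians of the 7 clusters with a share ratio of 2 or more ran from 1.14 to 1.23, and those of the 7 with a ratio of 0.5 or less from 1.27 to 1.37. Over the 16 balanced clusters, the log2 share ratio and the median x had a Pearson r of -0.79, and over the 30 cancer clusters with medians of 2000 UMIs or more an r of -0.73. These values describe points that come from the same 2 libraries and 1 map. Within the balanced clusters too, clusters at lower x had higher share ratios.

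**Figure D1:**
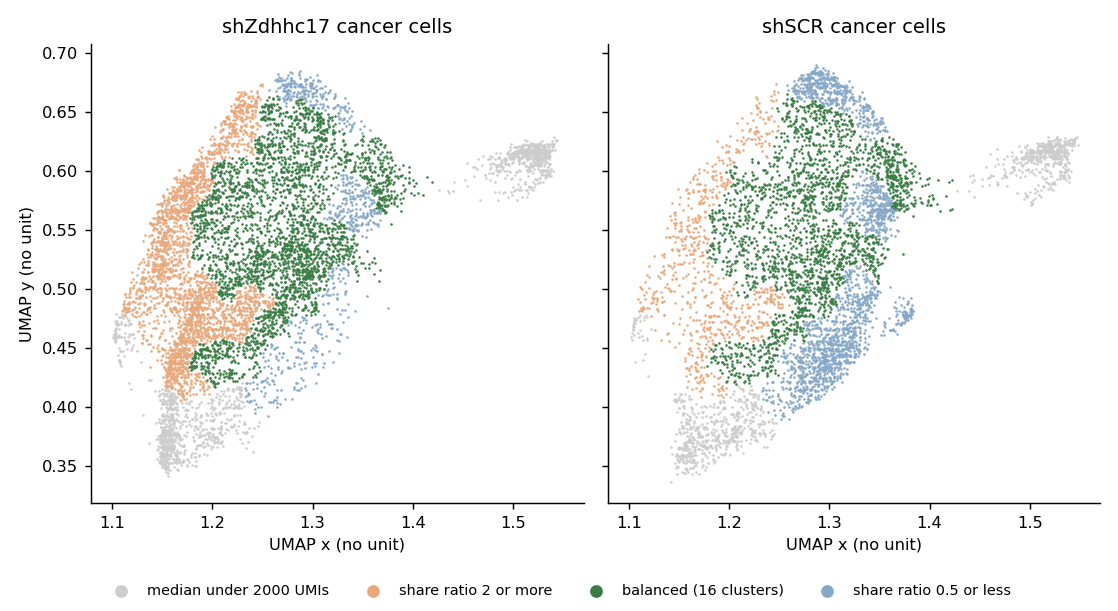
Deposited UMAP coordinates (no unit) of the cancer cells, shZdhhc17 on the left and shSCR on the right, each point 1 cell, coloured by the kind of initial cluster. The balanced clusters have median x from 1.20 to 1.37, which overlaps the ranges of the clusters with a share ratio of 2 or more (1.14 to 1.23) and of 0.5 or less (1.27 to 1.37).

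The balanced clusters made up 40.0% of shZdhhc17 cancer cells (exact 95% interval 38.9 to 41.1) and 38.4% of shSCR cancer cells (37.2 to 39.6). The ratio was 1.04 (counting interval 1.00 to 1.09). The rule fixed the range of the clusters' ratios, so this near equality is a description. Among all cells of the library they made up 14.7% of shZdhhc17 (14.3 to 15.2) and 10.4% of shSCR (10.0 to 10.8), a ratio of 1.41 (1.35 to 1.49). That ratio was close to the one for all cancer cells (1.36, 1.32 to 1.40) and for the cancer clusters with medians under 2000 UMIs (1.37, 1.27 to 1.48). Closeness to the ratio of all cancer cells follows in part from the rule, which limited the ratios among cancer cells, and is a description too. They held 22.9% of all UMIs of the shZdhhc17 library and 16.8% of those of the shSCR library.

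Single clusters held between 220 and 449 cells. The share ratio was above 1 in 8 clusters, with 1748 shZdhhc17 and 1000 shSCR cells, and below 1 in the other 8, with 1423 and 1382 cells. Cluster 30 was the most even, with 3.05% of shZdhhc17 and 3.21% of shSCR cancer cells (ratio 0.952, 0.792 to 1.15). Clusters 29 (ratio 0.924), 68 (0.913) and 74 (0.896) were also close to 1. At the ends stood cluster 108, with 1.97% of shZdhhc17 and 1.03% of shSCR cancer cells, and cluster 85, with 1.53% and 2.66%. The exact share intervals of the libraries were separate in 8 of the 16 clusters, against 70.3% of all 37 cancer clusters, from which nothing is read because the rule used these shares.

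The clusters just inside the limits were not clearly apart from those just outside. Cluster 85 (ratio 0.574, 0.455 to 0.724) was kept and cluster 6 (0.441, 0.373 to 0.522) was not. Cluster 108 (1.91, 1.43 to 2.55) was kept and cluster 62 (2.00, 1.59 to 2.52) was not. The counting intervals of all 4, and that of cluster 107 (1.79, 1.35 to 2.37), reached past the limit next to them. The limit on UMIs fell into a wide gap, since the lowest median of a balanced cluster was 7187.5 UMIs and the highest of a cluster under the limit was 1173.

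**Figure D2:**
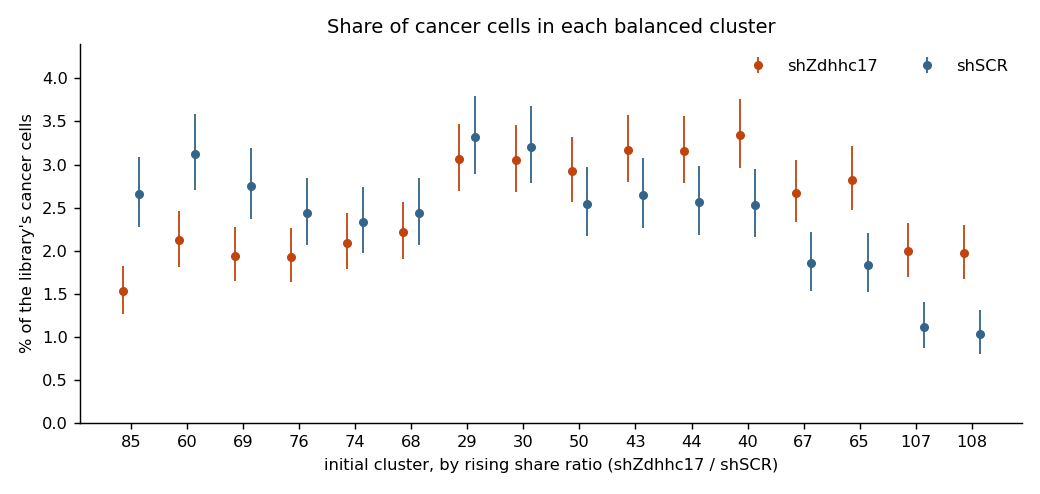
Share of each library's cancer cells (%, y axis) in the 16 balanced clusters, ordered by rising share ratio, with exact 95% binomial intervals. Cluster 85 holds 1.53% of shZdhhc17 and 2.66% of shSCR cancer cells at the left end, and cluster 108 holds 1.97% and 1.03% at the right end.

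Balanced cells had fewer UMIs in the shZdhhc17 library. Their median, whose level the rule limited from below, was 11692 UMIs in shZdhhc17 (quartiles 8528 and 15840) and 14614 in shSCR (9913 and 19641), a ratio of 0.800. The median number of detected genes was 3504 in shZdhhc17 and 3843 in shSCR, a ratio of 0.912. The median of UMIs was lower in shZdhhc17 in 15 of the 16 clusters, against 86.5% of all 37 cancer clusters, and that of genes in the same number, against 81.1%. A share near that of all cancer clusters is no result about the balanced ones.

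The size of the UMI difference varied among the clusters, with ratios from 0.636 to 1.10 and a median of 0.770. It was widest in cluster 29, at 10435 UMIs in shZdhhc17 and 16416 in shSCR. Cluster 108 was close to even, with 12837 and 13481 UMIs, although its share ratio was the highest of the 16. Cluster 76 went the other way, with 7420 UMIs in shZdhhc17 and 6718 in shSCR. Its shSCR cells spread widely, with quartiles of 2114 and 11208 UMIs, against 4013 and 10397 in shZdhhc17. The quartile ranges of the libraries overlapped in all 16 clusters.

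**Figure D3:**
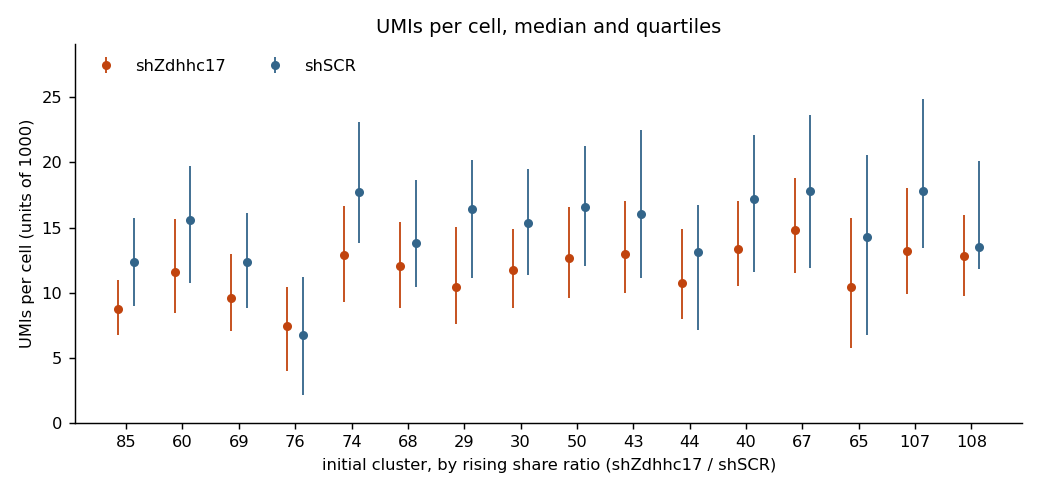
UMIs per cell (y axis, in units of 1000) in the 16 balanced clusters, points for medians and lines for the quartiles over cells. The shZdhhc17 median lies below the shSCR median in 15 clusters, and above it in cluster 76 (7420 and 6718 UMIs).

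Although deeper at the median, the shSCR cells also held more very shallow cells. Under 2000 UMIs were 4.60% of balanced shZdhhc17 cells (146 cells, 3.90 to 5.39) and 6.59% of balanced shSCR cells (157 cells, 5.63 to 7.66). Such cells were concentrated in clusters 76 (17.0% in shZdhhc17 and 24.5% in shSCR) and 65 (16.1% and 12.3%). Cluster 44 had 2.80% and 11.3%. Without clusters 76 and 85 the shares were 3.90% (3.23 to 4.67) and 5.03% (4.13 to 6.07), with overlapping intervals.

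Genes per cell could not be compared after thinning, which needs counts per gene, so the libraries were compared within 10 classes of UMIs. The gene ratio was then 1.03 in place of 0.912, that is, at a like number of UMIs the shZdhhc17 cells had slightly more genes. The same comparison gave 1.02 in the clusters with a share ratio of 2 or more and 1.04 in those with 0.5 or less. Over 12 other cell types the median was 1.03 (0.940 to 1.06). The balanced clusters lay inside that range.

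The depth difference between the libraries was of the size seen in several other types. Among the cancer clusters, the UMI ratio was 0.809 where the share ratio was 2 or more, 0.747 where it was 0.5 or less, and 0.982 in clusters with medians under 2000 UMIs. Over the 12 other types with at least 50 cells in each library it ranged from 0.551 in T cells to 0.889 in B cells, with a median of 0.794. Both ends come from far shallower cells, with medians of 1130 and 2051.5 UMIs in T cells and 839.5 and 944.5 in B cells. No cell had under 500 UMIs, and how this floor bears on ratios of shallow cells was not tested. Fibroblasts, the matrix-producing stromal cells, had 10393 UMIs in shZdhhc17 and 12726 in shSCR (ratio 0.817), close in level and ratio to the balanced clusters. Cells annotated as MDSCs were nearer still, with 12587 and 15992 UMIs (ratio 0.787). Kupffer cells, the macrophages resident in liver sinusoids, had a ratio of 0.820. Whether the cells or the handling of a library set this difference cannot be told apart with 1 library per group.

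**Figure D4:**
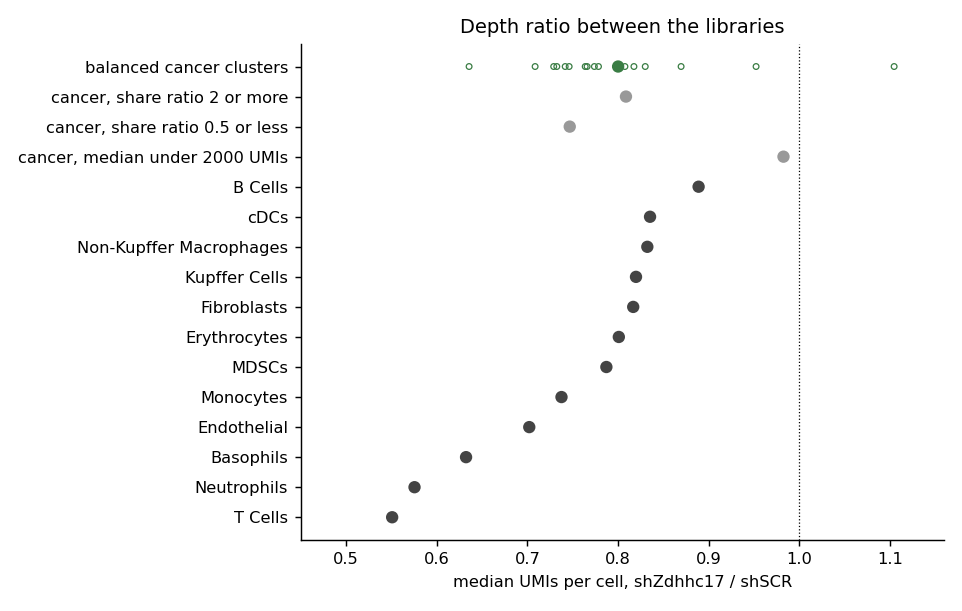
Ratio of median UMIs per cell, shZdhhc17 over shSCR (x axis), for the balanced clusters pooled (filled green point, 0.800), each of the 16 (open points), the other cancer clusters (grey) and 12 other cell types (dark). The pooled value lies within the range of the other types (0.551 to 0.889), and cluster 76 lies above 1 (dotted line).

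The mitochondrial percent set 2 of the 16 clusters apart from the others. Cluster 76 had a median of 3.25% in shZdhhc17 and 4.02% in shSCR, and cluster 85 had 4.48% and 4.84%. In the other 14 clusters the medians ran from 7.06% to 8.48% in shZdhhc17 and from 6.97% to 8.43% in shSCR. Cells under 5% made up 65.7% of clusters 76 and 85 in shZdhhc17 (59.7 to 71.3) and 56.0% in shSCR (50.3 to 61.6), against 13.8% and 15.6% in the other 14. These clusters were also the shallowest of the 16, with 7187.5 and 10411 UMIs over both libraries, and lay at the highest x (1.37 and 1.36). Their cells lay mostly in their own cluster on the map, with 93.3% and 91.9% of neighbours from it, against 85.1% to 90.2% in the other 14.

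Clusters 76 and 85 accounted for 3.46% of shZdhhc17 cancer cells (3.06 to 3.88) and 5.09% of shSCR cancer cells (4.56 to 5.67), a ratio of 0.679. Without them the balanced clusters made up 36.5% and 33.3% of cancer cells, a ratio of 1.10 (1.05 to 1.15). Over the 16 clusters the medians of mitochondrial percent and of UMIs had a Pearson r of 0.73, and over 14 without this pair an r of -0.12, so the relation rests on these 2 clusters.

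Between the libraries, the mitochondrial percent of the balanced cells was nearly equal, with medians of 7.64% in shZdhhc17 (quartiles 5.78% and 9.38%) and 7.55% in shSCR (5.53% and 9.61%). The difference was 0.091 percentage points. The sign was not stable, with -0.0249 when the libraries were matched on UMIs and -0.0262 as the median over clusters. The median was lower in shZdhhc17 in 9 of the 16 clusters, against 54.1% of all 37 cancer clusters. The libraries differed by 0.5 points or more in 2 clusters, against 18.9% of all cancer clusters. These were cluster 76, and cluster 107 with 7.70% in shZdhhc17 and 7.06% in shSCR. The libraries differed more in 9 of the 12 other types, such as neutrophils with 0.656% in shZdhhc17 and 1.72% in shSCR, and erythrocytes with 3.41% and 6.08%. They differed less in the other 3, which were T cells, MDSCs and non-Kupffer macrophages. These counts used medians not matched on UMIs. Matched on UMIs, the difference was 0.946 points in T cells, -0.0463 in MDSCs and 0.0948 in non-Kupffer macrophages, against -0.0249 in the balanced cells. It was then 0.103 in neutrophils and -1.30 in erythrocytes. The split into 9 and 3 thus changed with matching. The balanced cells had a higher median over both libraries (7.60%) than 11 of the 12 other types, of which endothelial cells, the lining cells of vessels, reached 7.68%. In the other cancer clusters it was 8.08% with a share ratio of 2 or more, 7.80% with 0.5 or less and 3.02% with median UMIs under 2000. Between the libraries these 3 kinds differed by 0.0223, -0.254 and 0.408 points, so near equality was not particular to the balanced cells.

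**Figure D5:**
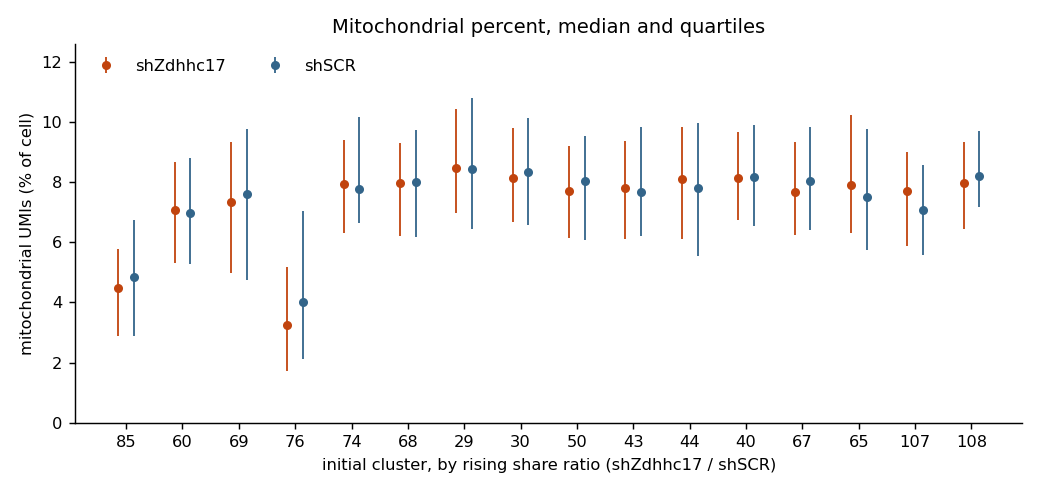
Mitochondrial UMIs (% of a cell's UMIs, y axis) in the 16 balanced clusters, points for medians and lines for the quartiles over cells. Clusters 85 and 76 lie under 5% in both libraries, and the other 14 lie between 6.97% and 8.48%.

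Balance of a cluster does not show that the cells of the libraries lie at the same places inside it, so neighbours were counted. Among the 30 nearest cancer cells on the UMAP, 59.0% were shZdhhc17 cells around a balanced shZdhhc17 cell and 54.4% around a balanced shSCR cell. The difference was 4.57 points, and the makeup of each cell's own cluster alone would give 2.32. The difference was 1.96 points in the clusters with a share ratio of 2 or more, where the makeup alone would give 0.462. It was 11.7 points in those with 0.5 or less (5.13 from makeup) and 6.71 in those with median UMIs under 2000 (3.43 from makeup). Neighbours from shZdhhc17 were more frequent around shZdhhc17 than around shSCR cells in 15 of the 16 balanced clusters, against 89.2% of all cancer clusters, with differences from -1.55 points in cluster 40 to 4.89 points in cluster 29. The shZdhhc17 cells lay at lower median x in 13 of the 16, against 78.4% of all cancer clusters, by at most 0.661 of the SD of x in a cluster.

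Cells of the balanced clusters bordered both kinds of skewed cluster. Of their neighbours 95.9% were in balanced clusters, 1.93% in clusters with a share ratio of 2 or more and 2.05% in clusters with 0.5 or less. Clusters 65 and 108 had 8.08% each of neighbours in the clusters with 2 or more. Clusters 69 and 74 had 8.41% and 5.86% in those with 0.5 or less. Cluster 68 had neighbours from balanced clusters only.

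The authors' second clustering, whose run for these cells holds cancer cells only, cut across the initial one. It holds 186 re-clusters, and a balanced cluster was spread over 34 to 92 of them, with 6.80% to 22.9% of its cells in the largest. Balanced cells occurred in 176 re-clusters and were the majority in 75. Among the 100 re-clusters with at least 20 balanced cells, the share of balanced shZdhhc17 cells over that of balanced shSCR cells lay between 0.5 and 2 in 76. It was 2 or more in 12 and 0.5 or less in 12. Scored on all their cancer cells, 35 of the 186 re-clusters of any size had a ratio of 2 or more, and 33 had 0.5 or less. The lowest ratio among the 100 was 0.239 (7 shZdhhc17 and 22 shSCR cells, counting interval 0.102 to 0.559). The highest was 4.51 (18 and 3 cells, 1.33 to 15.3), so both ends rest on few cells.

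Each re-cluster was also scored by the library ratio of its cancer cells from outside the balanced clusters, so that the balanced cells were not counted in the score. The score is not independent of the rule, which set the outside cells apart by UMIs and library shares. The re-clusters were also formed with the balanced cells included. In the 31 re-clusters whose outside cells had a ratio of 2 or more lay 11.0% of balanced shZdhhc17 cells (9.94 to 12.1) and 7.30% of balanced shSCR cells (6.29 to 8.42), a ratio of 1.51 (1.27 to 1.79). In the 44 with an outside ratio of 0.5 or less lay 32.5% (30.9 to 34.2) and 39.3% (37.3 to 41.3), a ratio of 0.828 (0.772 to 0.889). In the 64 between these limits lay 32.3% and 31.6%, with overlapping intervals. The remaining 47 re-clusters had under 20 outside cells and held 24.1% and 21.8%. These values pool the 16 clusters, whose own makeup by library differs. Compared within each cluster and then combined (Mantel-Haenszel), the ratio was 1.11 for the re-clusters with an outside ratio of 2 or more and 0.931 for those with 0.5 or less. These combined ratios have no counting interval here, so whether they differ from 1 beyond counting error is not known. The shZdhhc17 share of the first kind was higher in 9 clusters, lower in 5 and equal in 2, and that of the second kind was lower in 12 clusters and higher in 4. The spread between mice is not known.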

How the data were processed

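Cell metadata were analysed for 2 libraries. The authors used the BD Rhapsody Sequence Analysis Pipeline, corrected for ambient RNA, clustered cells, re-clustered selected sets and named types from markers, with gene symbols on GRCm38 (mm10), per the file headers. The submitters' processing notes list Seurat 4.1.0. The name of the ambient correction tool is not given in the sources used here. Per cell, the deposited values are counts (UMIs and detected genes), the mitochondrial percent of UMIs, and UMAP coordinates, a deposited score with no unit. No cell had under 500 UMIs, so shallower cells are not represented. Depth was 172527305 UMIs in shZdhhc17 and 214842365 in shSCR, with medians of 6732 and 7105 per cell.

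Shares have exact (Clopper-Pearson) 95% intervals and ratios log-normal 95% counting intervals (Python 3.11.15, pandas 2.3.3, scipy 1.17.1). With 1 library per group no test was made. Neighbours are the 30 nearest cancer cells on the UMAP. The 10 classes of UMIs hold equal numbers of the cells compared, and ratios or differences of medians were averaged over them by cell number. Functions were tested on simulated data. Doublets were those set apart by the authors, and no caller was run. Gene positions are from GENCODE release 21 of the mouse series (M21). The named genes were the 3 cancer markers, Zdhhc17 and fixed markers of other types, since levels per gene were not analysed here. The B cell marker list is not reported here. The members, lists and comparisons were chosen with earlier results of these data known. Filters on UMIs and mitochondrial percent, other rule limits and other numbers of neighbours were tried as alternatives.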

Additional observations from a re-analysis of the deposited data

How the results depend on the processing

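Alternatives that leave out clusters 76 and 85, that take neighbours within the own cluster, or that compare re-clusters within each cluster, were chosen after the data were seen. A value counted as moved when it left its counting interval (shares) or changed by over 1 SD of the 16 per-cluster values. The UMI ratio of 0.800 stayed between 0.770 and 0.836 in all 7 alternatives, and the neighbour difference of 4.57 points between 3.65 and 5.11 in all 8. Both counts include a limit of 5000 UMIs on cluster medians. It kept the same 16 clusters, so it could not change these or the later values. The gene ratio of 0.912 became 1.03 within classes of UMIs and stayed below 1 in the other 7. With share ratios between 0.667 and 1.5, the rule kept 12 clusters, the ratio of shares of cancer cells was 0.998 in place of 1.04, and the mitochondrial difference was -0.00187 in place of 0.091 points. That difference was -0.0262 as the median over clusters and -0.0249 within classes of UMIs. The share ratio was 1.10 without clusters 76 and 85. Among all cells with 4748 UMIs or more, the lower quartile of cancer cells, the ratio of shares of all cells was 1.502 in place of 1.41. The cause was not tested. Scoring shares over all cells kept 15 clusters, 13 of them among the 16. No paired analysis was possible because each group has 1 pooled library and no result comes from a test.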
